A study of Mus musculus with 19 samples.

Results

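The immediate early and AP-1 genes described here were Fos, Fosb, Jun, Junb, Jund, Egr1, Egr2, Atf3, Ier2 and Dusp1. They were 10 genes taken by name from the 27179 genes listed in the deposited expression table, which gave log2(RPKM + 1) for each mouse. RPKM is the number of reads per kilobase of gene, scaled to the reads counted on genes in each library, so levels of different genes were compared per length. All 10 genes reached an RPKM of 0.5 in 19 of 19 mice, where the filter asked for 4 mice, and they were tested among the 14186 genes that passed it.

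The study sequenced splenocyte RNA to test its hypothesis that the dosage of X-linked genes may matter. The 19 mice were of the FCG model, which separates the influence of the sex chromosomes from that of the gonads. In this model Sry, the testis-determining gene, was deleted from the Y chromosome and carried instead as a transgene on an autosome, so that mice with the transgene had testes and mice without it had ovaries, with either complement. The groups were XX mice with ovaries (XXF, n = 5), XY mice with ovaries (XYF, n = 4), XX mice with testes (XXM, n = 5) and XY mice with testes (XYM, n = 5), from a colony in which B6.Cg-Tg(Sry)2Ei Sry^dl1Rlb fathers (laboratory code ArnoJ) were crossed to C57BL/6J mothers. All mice were immunized intraperitoneally with heat-killed Streptococcus pneumoniae (HKSP) of the unencapsulated, avirulent strain R36A and killed 1 week later, and there were no unimmunized mice to give a level before immunization. The RNA was that of whole splenocytes, strained into suspension and freed of erythrocytes by lysis. The ages of the mice are unknown.

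The libraries held 11263753 to 19962022 reads counted on genes, with medians of 16703648 in XXF, 17579368 in XYF, 16156083 in XXM and 19061692 in XYM mice. Reads on the members ranged from 50 for Atf3 in XYM 16 to 8955 for Jund. Libraries of 1 group differed beyond counting error, with a chi-square per gene of at least 20.7 for each pair, and each was counted as 1 mouse. Running numbers in the titles followed the groups and no batch was given, so order of processing and group cannot be told apart. The titles of all XXM mice, and of no other group, also carried the label Fanko, whose meaning was not given. The 7 B cell markers and the 8 T cell markers examined each had reads in every mouse. The libraries of XYF F9 and XYM 9 stood apart from the others in 10 neutrophil markers, whose RPKM summed to 56970 and 58830 in these mice and to between 3251 and 16890 in the rest.

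Immediate early genes are switched on within minutes of a stimulus, before any new protein is made, when kinases of the MAP kinase cascades activate factors already bound at their promoters. Fos and Jun proteins pair through leucine zippers to form AP-1, which with Egr proteins carries signals from antigen receptors, Toll-like receptors, growth factors and cell stress to later genes in lymphocytes and myeloid cells. The transcripts decay quickly, and dissociating a tissue into single cells is itself a known inducer of them.

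All 10 members were expressed in every mouse and their levels differed widely by gene. Junb had the highest mean level over the 19 mice, an RPKM of 177, followed by Jund at 135, Ier2 at 108, Fos at 77.6, Jun at 51.6, Egr1 at 33.1 and Dusp1 at 28.5. Fosb at 6.65, Egr2 at 5.36 and Atf3 at 3.22 were the scarcest. The summed RPKM of the 10 members was 623 ± 139 (SD, n = 5) in XXF, 683 ± 185 (n = 4) in XYF, 695 ± 131 (n = 5) in XXM and 514 ± 35.9 (n = 5) in XYM mice. XYM mice thus had both the lowest sum and the narrowest range, 476 to 554, while XXF mice ranged from 384 to 722.

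**Figure D1:**
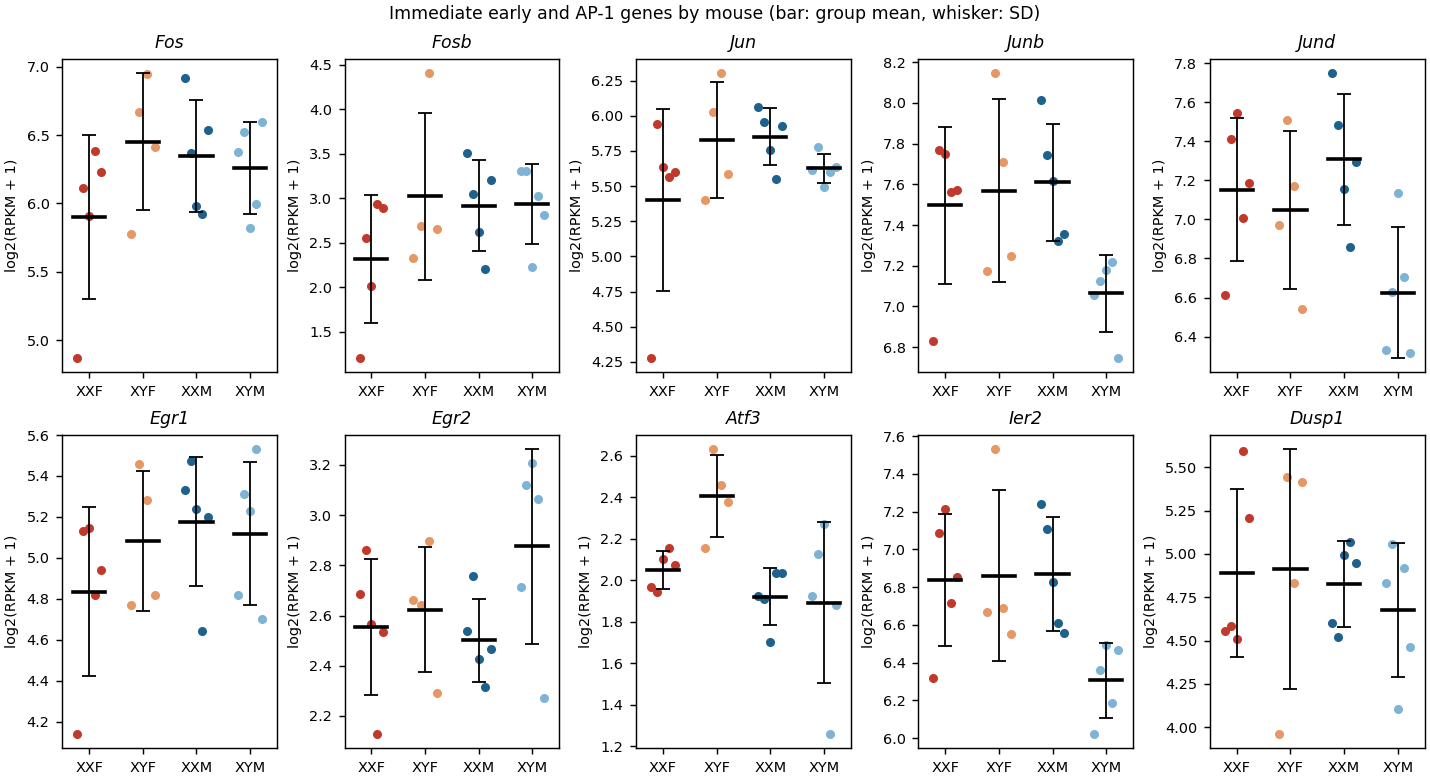
Level of each of the 10 members in log2(RPKM + 1), 1 point per mouse, by group, with bars for the group mean and SD. XYM mice lie below all XXM mice for Junb and Ier2, and XXF F1 is the lowest of all mice for Fos, Fosb, Jun and Egr1.

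Members were compared between complements within each gonadal sex and between gonadal sexes within each complement, in limma with adjustment over all 14186 genes. A gene was called at an adjusted p under 0.1 with a difference beyond 1.5-fold in either direction, and all tests were 2-sided. Differences are on the log2(RPKM + 1) scale, which understates the change of scarce genes. Because the samples are whole splenocytes, fewer cells of a type and less RNA per cell cannot be told apart in any of these values. The 4 comparisons between groups share mice with one another, so their values are given side by side and not as repeats of one another.

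Among mice with testes, XX mice had more Jund RNA than XY mice, and 1 of 10 members was called, where 2.96% of all genes were called. In this comparison 8 of 10 differences were above 0, with a median of 0.12 beside 0.0064 for all genes. With array weights Fos (-0.10), Egr1 (-0.086), Atf3 (-0.021) and Dusp1 (-0.018) were below 0. Without overlap between the groups were 2 members, Junb and Ier2, beside 4.07% of all genes. At an unadjusted limma p under 0.05 there were 4 of 10 members beside 27.1% of all genes, and limma-voom on recovered reads called 1 member beside 2.81%. The call of Jund was kept in 18 of 29 alternatives, and with 1 mouse left out the members called ranged from 0 to 3 and all genes called from 51 to 1213, where the full fit gave 420.

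Among mice with ovaries, limma called 0 of 10 members between XX and XY, where 1.38% of all genes were called. An unadjusted limma p under 0.05 was reached by 1 of 10 members beside 18.7% of all genes, 0 members were without overlap between the groups beside 5.65%, and limma-voom called 0 beside 1.71%. Here 9 of 10 differences were below 0, with a median of -0.16 beside 0.062 for all genes. They ran from -0.70 for Fosb to 0.10 for Jund. Without XXF F1 and XYF F8, chosen after seeing the data, Fosb (0.037), Jun (0.015), Junb (0.14), Ier2 (0.049) and Dusp1 (0.033) were above 0. Averaged over both gonadal sexes, the XX minus XY comparison gave 0 called members in limma beside 1.72% of all genes, with 1 member at an unadjusted p under 0.05 beside 22.8%, 0 called by limma-voom beside 2.78% and 4 of 10 differences above 0.

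Between gonadal sexes, the members of XX mice gave 0 calls in limma beside 4.22% of all genes, with 0 at an unadjusted p under 0.05 beside 19.8%, 0 without overlap beside 9.71%, 0 called by limma-voom beside 5.67%, and 7 of 10 differences of males minus females above 0. In XY mice the males had the lower mean for 8 of 10 members, with a median of -0.22 beside 0.017 for all genes. There limma called 0 members beside 15.8% of all genes, because 3 members with an adjusted p under 0.1, Atf3, Ier2 and Junb, differed by less than 1.5-fold. In XY mice 3 of 10 members had an unadjusted limma p under 0.05 beside 42.4% of all genes, 1 member, Ier2, did not overlap between the sexes beside 13.8%, and limma-voom called 1 beside 20.6%. Averaged over both complements, limma called 0 members beside 7.32% of all genes, with 1 at an unadjusted p under 0.05 beside 41.7%, 0 called by limma-voom beside 12.1% and 5 of 10 differences above 0.

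The test of whether the XX minus XY difference was the same in females and in males called 0 members in limma beside 0.0846% of all genes and 0 in limma-voom beside 0.0282%. This share of all genes was unsteady, since its 12 genes became 0 to 1694 with 1 mouse left out and 1910 with array weights, while the members called stayed at 0 with any 1 mouse left out. For 9 of 10 members the difference was lower in females than in males, with a median of -0.58 beside 0.018 for all genes, and 1 member, Junb, had an unadjusted limma p under 0.05 beside 21.0% of all genes. The shares of members called were thus at or below the shares of all genes in 6 of these 7 comparisons, and the single call among males rested on 1 gene of 10.

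**Figure D2:**
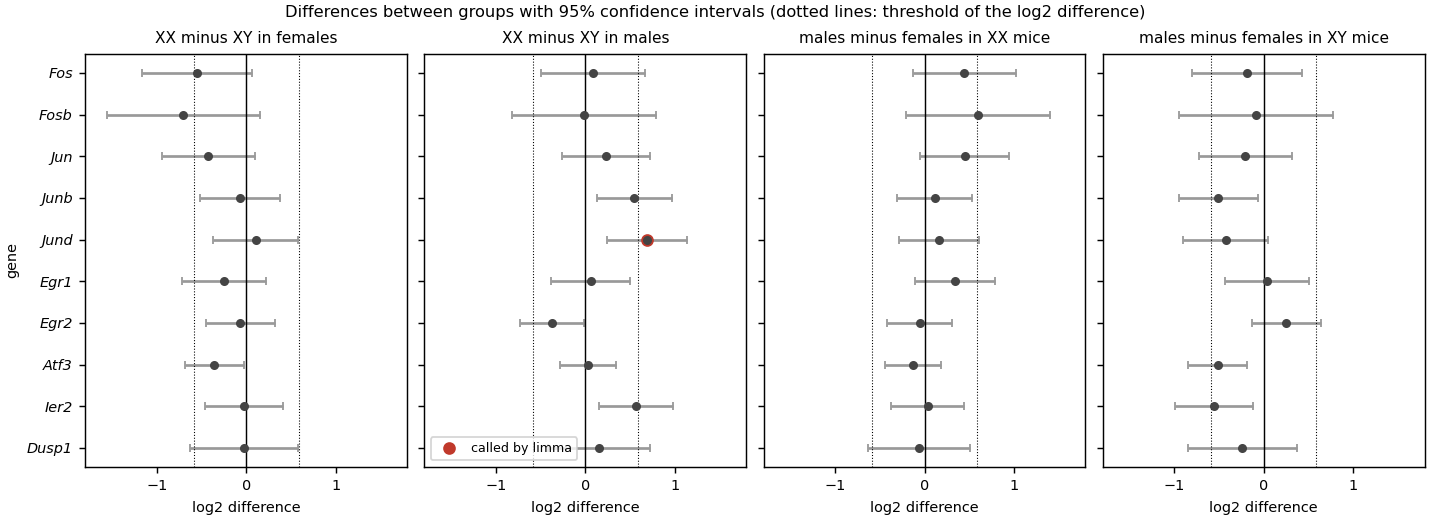
Log2 difference of each member in the 4 comparisons between groups, with its 95% confidence interval from limma. In males the intervals of Junb, Jund and Ier2 lie above 0 and that of Egr2 below 0, in females that of Atf3 lies below 0, and in XY mice those of Atf3, Ier2 and Junb lie below 0.

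Fos, the partner that gives AP-1 dimers their strongest transactivation, lies on chromosome 12 (GRCm38, chr12:85473890-85477274, Entrez 14281). In XXF mice F1 to F5, Fos was 4.87, 6.11, 5.91, 6.38 and 6.23 log2(RPKM + 1), and in XYF mice F6 to F9 it was 5.77, 6.67, 6.95 and 6.41. In XXM mice 2, 5, 6, 7 and 8 Fos was 6.92, 6.37, 5.98, 5.93 and 6.53, and in XYM mice 12, 13, 15, 16 and 9 it was 6.37, 6.52, 5.82, 5.99 and 6.59. XXF F1 lay far below the other mice, XYF F8 was the highest, and every pair of groups overlapped. Group means ran from XYF (6.45 ± 0.50, SD, n = 4) through XXM (6.35 ± 0.41, n = 5) and XYM (6.26 ± 0.34, n = 5) to XXF (5.90 ± 0.60, n = 5), and no neighbours in this order were farther apart than their SDs. The XX minus XY difference in females was -0.55 (SE 0.29, limma adjusted p = 0.310), with all 5 XXF mice below the XYF mean. In males it was 0.09 (SE 0.28, limma adjusted p = 0.857), and the difference between these differences was -0.64 (SE 0.40, adjusted p = 0.352). Without XXF F1 the value in females was -0.29, and over 29 alternatives it ranged from -0.77 to -0.13 with adjusted p from 0.284 to 0.804.

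Fosb, a close relative of Fos whose truncated splice form is long-lived, lies on chromosome 7 (chr7:19302696-19310118, Entrez 14282). In XXF mice F1 to F5 its values were 1.20, 2.55, 2.01, 2.93 and 2.89, and in XYF mice F6 to F9 they were 2.33, 2.69, 4.40 and 2.66. The XXM values for mice 2, 5, 6, 7 and 8 were 3.51, 3.04, 2.62, 2.20 and 3.20, and the XYM values for mice 12, 13, 15, 16 and 9 were 3.31, 3.30, 2.23, 3.02 and 2.81. XYF F8 and XXF F1 were again the extremes, at 1368 and 82 reads, and all groups overlapped. The means were 3.02 ± 0.94 in XYF (SD, n = 4), 2.93 ± 0.45 in XYM (n = 5), 2.92 ± 0.51 in XXM (n = 5) and 2.32 ± 0.72 in XXF mice (n = 5), all within their spread. The XX minus XY difference was -0.70 in females (SE 0.41, limma adjusted p = 0.354) and -0.02 in males (SE 0.39, adjusted p = 0.980), with a difference between them of -0.69 (SE 0.56, adjusted p = 0.474). The value in females was -0.24 without XYF F8 and -0.42 without XXF F1. In XY mice the males minus females difference was -0.09, and it was 0.38 without XYF F8 and 0.09 without XYM 15.

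The promoters of Fos, Fosb and Jun are shown because these 3 genes varied together from mouse to mouse, as described with the covariation of Fos. Each run is the 250 bases before the start held in the RefSeq promoter entry, 5′ to 3′ on the gene's strand, on GRCm38.p6, at chr12:85473640-85473889 on the plus strand, chr7:19310046-19310295 on the minus strand and chr4:95052223-95052472 on the minus strand. Capitals mark a match to GCGNGGGCG, the letters of an EGR site, at 50 to 42 bases before the start in the Fosb entry, which lies inside the gene interval given above.
Fos: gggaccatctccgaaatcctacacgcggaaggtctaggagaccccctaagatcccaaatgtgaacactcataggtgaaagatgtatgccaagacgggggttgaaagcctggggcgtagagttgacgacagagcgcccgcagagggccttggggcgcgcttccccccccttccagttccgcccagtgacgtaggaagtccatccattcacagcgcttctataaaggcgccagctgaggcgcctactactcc
Fosb: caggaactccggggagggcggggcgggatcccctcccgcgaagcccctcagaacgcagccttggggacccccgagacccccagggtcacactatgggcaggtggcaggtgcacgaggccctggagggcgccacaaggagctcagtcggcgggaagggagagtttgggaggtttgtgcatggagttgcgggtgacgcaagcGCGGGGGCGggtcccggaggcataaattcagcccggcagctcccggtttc
Jun: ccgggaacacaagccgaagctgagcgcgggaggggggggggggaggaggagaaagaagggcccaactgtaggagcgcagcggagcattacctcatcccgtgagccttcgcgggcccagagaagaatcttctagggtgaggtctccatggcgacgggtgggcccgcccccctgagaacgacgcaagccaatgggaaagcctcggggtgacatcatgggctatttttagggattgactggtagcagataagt
The runs are rich in G and C, at 58.4% in Fos, 68.8% in Fosb and 61.2% in Jun. Promoters were matched for 8 of the 10 members and searched on both strands for 4 motifs, beside all 32851 promoters given. The AP-1 letters TGANTCA were in 0 of 8 members and in 6.75% of all promoters. The CRE letters TGACGTCA were in 1 of 8, Dusp1, at 143 to 136 bases before the start in its entry, and in 1.55% of all. The EGR letters were in Fosb alone among the 8 and in 4.7% of all, and the CArG box was in Egr2 alone, in entries whose starts lie inside its gene interval, and in 1.47% of all. Members were counted by gene and all promoters by entry. Egr2 had 5 entries, so its match and the share of all are in unlike units. A match is a description of letters, and a window without one says nothing of the factor.

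Jun, the namesake of its family and the main partner of Fos in AP-1, lies on chromosome 4 (chr4:95049036-95052222, Entrez 16476). Its values were 4.28, 5.94, 5.63, 5.57 and 5.60 in XXF F1 to F5 and 5.40, 6.03, 6.30 and 5.59 in XYF F6 to F9. They were 6.06, 5.96, 5.75, 5.55 and 5.93 in XXM 2, 5, 6, 7 and 8 and 5.62, 5.78, 5.49, 5.60 and 5.64 in XYM 12, 13, 15, 16 and 9. The XYM mice were tightly grouped, XXF F1 stood far below the rest, and each pair of groups overlapped. The means were 5.85 ± 0.20 in XXM (SD, n = 5), 5.83 ± 0.41 in XYF (n = 4), 5.63 ± 0.10 in XYM (n = 5) and 5.40 ± 0.65 in XXF mice (n = 5). The XX minus XY difference was -0.43 in females (SE 0.25, limma adjusted p = 0.358) and 0.23 in males (SE 0.24, adjusted p = 0.533). Without XXF F1 the value in females was -0.14. The difference between the 2 was -0.65 (SE 0.34, adjusted p = 0.274, exact permutation p = 0.0808).

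Junb, a weaker activator that can restrain Jun and that is abundant in lymphocytes, lies on chromosome 8 (chr8:84976909-84978748, Entrez 16477). Its values in XXM 2, 5, 6, 7 and 8 were 8.01, 7.74, 7.62, 7.32 and 7.36, and in XYM 12, 13, 15, 16 and 9 they were 7.06, 7.12, 7.18, 7.22 and 6.75. In XXF F1 to F5 they were 6.83, 7.77, 7.75, 7.56 and 7.57, and in XYF F6 to F9 they were 7.17, 8.15, 7.71 and 7.25. All 5 XXM mice were above all 5 XYM mice, whereas XXF and XYF mice overlapped. The means were 7.61 ± 0.29 in XXM (SD, n = 5), 7.57 ± 0.45 in XYF (n = 4), 7.50 ± 0.38 in XXF (n = 5) and 7.06 ± 0.19 in XYM mice (n = 5), and of the neighbours in this order only XXF and XYM lay farther apart than their SDs. The XX minus XY difference in males was 0.55 (SE 0.20, 95% interval 0.12 to 0.97), and it did not pass at a limma adjusted p of 0.116, which ranged from 0.0438 to 0.290 over 29 alternatives as the value ranged from 0.43 to 0.62. Without XXM 7 it was 0.62 at a limma adjusted p of 0.0980 and was called. Exact permutation of the 5 and 5 males gave 0.00794, the smallest p that 252 arrangements allow. The difference in females was -0.07, and the difference between the 2 was -0.62 (SE 0.29, limma adjusted p = 0.236, exact permutation p = 0.0762). In XY mice the males minus females difference was -0.50 (SE 0.21, limma adjusted p = 0.0793, range 0.0461 to 0.274), with 3 of 5 XYM mice below all XYF mice and an exact permutation p of 0.0238. It passed 1.5-fold and was called without XYF F6 (-0.64, limma adjusted p = 0.0674) and without XYF F9 (-0.61, adjusted p = 0.0529).

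Jund, the family member that is present at rest and least dependent on a stimulus, lies on the same chromosome (chr8:70697739-70700616, Entrez 16478). In XXM 2, 5, 6, 7 and 8 it was 7.75, 7.48, 7.16, 6.86 and 7.29, and in XYM 12, 13, 15, 16 and 9 it was 6.33, 6.63, 7.14, 6.71 and 6.32. In XXF F1 to F5 it was 6.61, 7.41, 7.54, 7.01 and 7.19, and in XYF F6 to F9 it was 6.97, 7.51, 7.17 and 6.54. Among the males 4 of 5 XXM mice were above every XYM mouse, with XXM 7 below XYM 15, and in females the groups overlapped. The means were 7.31 ± 0.33 in XXM (SD, n = 5), 7.15 ± 0.37 in XXF (n = 5), 7.05 ± 0.40 in XYF (n = 4) and 6.62 ± 0.33 in XYM mice (n = 5), in this order. Jund was 0.68 higher in XX than in XY males on the log2 scale (SE 0.21, 95% interval 0.24 to 1.13, limma adjusted p = 0.0885, exact permutation p = 0.0159). In females the difference was 0.10 (SE 0.23, limma adjusted p = 0.821), but the difference between the 2 was -0.58 (SE 0.31, limma adjusted p = 0.280, exact permutation p = 0.138). An effect of complement that differed between the sexes was therefore not shown.

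The call of Jund in males was close to the threshold and was kept in 18 of 29 alternatives, over which the value ranged from 0.57 to 0.81 and the adjusted p from 0.0137 to 0.225. It was lost with no filter on low values (limma adjusted p = 0.116) and with only the males in the fit (0.106). Among the males it was lost without XXM 2 (0.57, limma adjusted p = 0.225), XXM 5 (0.64, 0.183), XXM 6 (0.72, 0.136), XYM 12 (0.61, 0.212), XYM 13 (0.69, 0.192), XYM 16 (0.70, 0.163) or XYM 9 (0.61, 0.103). It was also lost without XXF F4 (0.103) or XXF F5 (0.110), which left the value at 0.68. In GENCODE, exons of Jund, Jun, Junb and Dusp1 overlap exons of Gm11175, Junos, Prdx2 and Ergic1 on the opposite strand. The library kit was KAPA stranded in the study's methods and NEBNext Ultra in the sample labels, and the strand setting of the counting is unknown, so reads of each pair cannot be told apart. The males minus females difference of Jund in XY mice was -0.42 (SE 0.23, limma adjusted p = 0.160, range 0.061 to 0.412), and it was called without XYF F9 (-0.59, adjusted p = 0.0610).

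Ier2, a short nuclear protein induced by growth factors, is on chromosome 8 as well (chr8:84661331-84662852, Entrez 15936). Its values in XXM 2, 5, 6, 7 and 8 were 7.24, 7.11, 6.83, 6.61 and 6.56, and in XYM 12, 13, 15, 16 and 9 they were 6.02, 6.36, 6.49, 6.18 and 6.47. In XXF F1 to F5 they were 6.32, 7.09, 7.21, 6.71 and 6.85, and in XYF F6 to F9 they were 6.67, 7.53, 6.69 and 6.55. All 5 XYM mice were below all XXM mice and below all XYF mice, while XXF and XYF mice overlapped. XXM, XYF and XXF means lay together at 6.87 ± 0.30 (SD, n = 5), 6.86 ± 0.45 (n = 4) and 6.84 ± 0.35 (n = 5), and XYM mice had 6.31 ± 0.20 (n = 5), farther from XXF than their SDs. The XX minus XY difference in males was 0.56 (SE 0.20, 95% interval 0.15 to 0.98), not called at a limma adjusted p of 0.107 that ranged from 0.0222 to 0.269 over 29 alternatives. It was called without XXM 7 (0.63, limma adjusted p = 0.0933), XXM 8 (0.64, 0.0919), XYM 15 (0.61, 0.0629) or XYM 9 (0.60, 0.0916). In females it was -0.02, and the difference between the 2 was -0.59 (SE 0.29, limma adjusted p = 0.245, exact permutation p = 0.0907).

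The males minus females difference of Ier2 in XY mice was -0.55 (SE 0.21, limma adjusted p = 0.0528), short of 1.5-fold. Exact permutation gave 0.00794 in this comparison and in that of XX with XY males, the smallest p possible in each. Over the alternatives the value in XY mice ranged from -0.70 to -0.33 and the adjusted p from 0.0306 to 0.204, and it passed both thresholds in 8 of 29. These included leaving out XYF F6 (-0.62), XYF F8 (-0.61), XYF F9 (-0.66), XYM 15 (-0.60) or XYM 9 (-0.59), and median ratio rescaling (-0.61).

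Egr1 and Egr2 encode zinc finger factors that bind GC-rich sites, Egr1 as a broad early responder and Egr2 as a regulator that restrains lymphocyte activation. Egr1 (Entrez 13653, chromosome 18) ranged from 4.14 in XXF F1 to 5.53 in XYM 16, with group means of 5.18 ± 0.32 in XXM (SD, n = 5), 5.12 ± 0.35 in XYM (n = 5), 5.08 ± 0.34 in XYF (n = 4) and 4.84 ± 0.41 in XXF mice (n = 5). All groups overlapped for Egr1, although 4 of 5 XXM mice were above every XXF mouse. Its differences ran from -0.25 (XX minus XY in females) to 0.34 (males minus females in XX mice), and none passed.

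Egr2 (chr10:67534469-67542188, Entrez 13654) had values of 2.71, 3.12, 3.21, 3.07 and 2.27 in XYM 12, 13, 15, 16 and 9 and of 2.54, 2.76, 2.43, 2.31 and 2.47 in XXM 2, 5, 6, 7 and 8. XYM 13, 15 and 16 were above all other mice, and XYM 9 was below all XXM mice. The XX minus XY difference in males was -0.38 (SE 0.17, limma adjusted p = 0.171, exact permutation p = 0.0952), with an adjusted p from 0.0166 to 0.321 over 29 alternatives and the value from -0.53 to -0.29. Egr2 and, at -0.02, Fosb were the 2 members below 0 in this comparison. The means were 2.88 ± 0.39 in XYM (SD, n = 5), 2.62 ± 0.25 in XYF (n = 4), 2.56 ± 0.27 in XXF (n = 5) and 2.50 ± 0.16 in XXM mice (n = 5), with neighbours within their spread.

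Atf3, a stress-induced factor of the ATF/CREB family that pairs with Jun proteins, lies on chromosome 1 (chr1:191170296-191183333, Entrez 11910). Its values were 2.16, 2.63, 2.46 and 2.38 in XYF F6 to F9 and 1.97, 1.94, 2.10, 2.16 and 2.07 in XXF F1 to F5. In XXM 2, 5, 6, 7 and 8 they were 1.92, 1.91, 1.70, 2.03 and 2.04, and in XYM 12, 13, 15, 16 and 9 they were 1.93, 2.13, 2.27, 1.26 and 1.88. XYF F7, F8 and F9 were above all other mice, and XYM 16, with 50 reads, was far below the rest. The means were 2.41 ± 0.20 in XYF (SD, n = 4), 2.05 ± 0.09 in XXF (n = 5), 1.92 ± 0.14 in XXM (n = 5) and 1.89 ± 0.39 in XYM mice (n = 5). The males minus females difference in XY mice was -0.51 (SE 0.16, limma adjusted p = 0.0233, range 0.0099 to 0.104 over 29 alternatives), with 4 of 5 XYM mice below all XYF mice and an exact permutation p of 0.0397. It was short of 1.5-fold at the pseudocount of 1, and it was called with pseudocounts of 0.1 (-0.66) and 0.5 (-0.59), in limma-voom (-0.69), and without XYF F6 (-0.60) or XYM 15 (-0.61). Without XYM 16, the mouse with 50 reads, it was -0.36, and without XYF F7 it was -0.44. Over both complements the difference was -0.32 (SE 0.11, limma adjusted p = 0.0344, range 0.0149 to 0.0704). Between XX and XY females it was -0.36 (SE 0.16, limma adjusted p = 0.240, range 0.146 to 0.507, exact permutation p = 0.0159), with 4 of 5 XXF mice below all XYF mice.

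Dusp1, a phosphatase that switches off MAP kinases and so ends the signal that induced it, lies on chromosome 17 (chr17:26505591-26508472, Entrez 19252). It ranged from 3.96 in XYF F6 to 5.59 in XXF F4, with group means of 4.91 ± 0.69 in XYF (SD, n = 4), 4.89 ± 0.49 in XXF (n = 5), 4.83 ± 0.25 in XXM (n = 5) and 4.68 ± 0.39 in XYM mice (n = 5). All groups overlapped and the means lay within their spread. Its 4 differences between groups ran from -0.24 to 0.15, and none passed. The deviations of Dusp1 from its group means had an r of 0.222 with those of Jun, 0.195 with Junb and -0.252 with Jund over the 19 mice, given as descriptions.

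The exact permutation tests made 40 comparisons of 1 member between 2 groups, and 7 of them gave an unadjusted p under 0.05. These were Junb, Jund and Ier2 between XX and XY males, Junb, Ier2 and Atf3 between XY males and XY females, and Atf3 between XX and XY females. By comparison they were 1 of 10 members in females beside 14.7% of all genes at an exact permutation p under 0.05, 3 in males beside 22.2%, 0 in XX mice beside 22.3% and 3 in XY mice beside 30.7%. Without XXF F1 and XYF F8, the mice with the lowest and the highest Fos, 4 tests gave an exact permutation p under 0.05. These 2 mice were chosen after seeing the data. No share of all genes was computed without them, so the 4 cannot be set beside the shares above.

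Every mouse but XXF F5 was the highest or the lowest of its group in at least 1 member. XXF F1 was the lowest of its group in 7 of 10 members and the lowest of all 19 mice in 4, and the mean of its 10 members, each centred on its mean over all mice, was -0.70 on the log2 scale. XYF F6 and XXM 7 were each the lowest of their group in 7 members, with means of -0.26 and -0.19. At the other end XYF F7 was the highest of its group in 6 members, XXM 2 in 6 and XYF F8 in 4, with means of 0.43, 0.35 and 0.43. XYM 15 was the highest of its group in 4 members and the lowest in 4, XXF F4 the highest in 4 and the lowest in 1, and XYM 9 the highest in 1 and the lowest in 4.

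For the mean of Fos, Fosb and Jun, XYF F8 was at 0.99, XXM 2 at 0.60, XYF F7 at 0.23 and XXF F1 at -1.44. For the mean of Junb, Jund and Ier2, XYF F7 was at 0.67, XXM 2 at 0.61, XYF F8 at 0.13 and XXF F1 at -0.47. Both sets of 3 genes were put together after their values were seen, so the signs of their means in XYM mice are not findings of their own. XYM mice 12, 13, 15, 16 and 9 were at -0.59, -0.35, -0.12, -0.35 and -0.55, and XYF F9 at -0.28, XXM 7 at -0.13 and XYF F6 at -0.12 were also below 0, while the XYM means of Fos, Fosb and Jun were 0.21, 0.31, -0.38, -0.02 and 0.12.

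**Figure D3:**
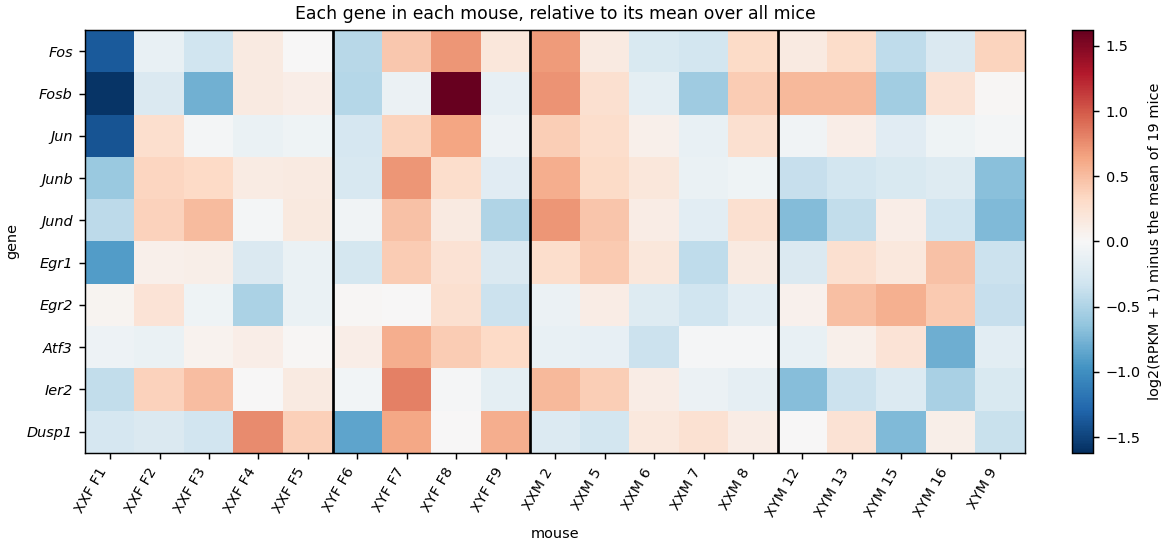
Log2(RPKM + 1) of each member in each mouse, centred on the member's mean over all 19 mice, with mice in columns by group and members in rows. XXF F1 is low for Fos, Fosb and Jun, and the XYM columns are low for Junb and Ier2 and, apart from XYM 15, for Jund.

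Fosb and Jun followed Fos within the groups and had the highest r with it among the other members. Differences between the r of members were not tested. For each of 9 members the deviations from group means were correlated with those of Fos over 19 mice, with 100000 permutations within groups and adjustment over the 9 relations. Fosb had an r of 0.848 (permutation p = 3e-05, adjusted 0.00027) and a rho of 0.846 (p = 5e-05, adjusted 0.00045). Jun had an r of 0.854 (permutation p = 0.0002, adjusted 0.0009) and a rho of 0.791 (p = 0.00043, adjusted 0.00194). Without XXF F1 and XYF F6, the mice farthest from the median of Fos, r was 0.772 for Fosb and 0.648 for Jun.

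Junb had an r of 0.594 with Fos (permutation p = 0.0324, adjusted 0.0971) and a rho of 0.461 (p = 0.0836, adjusted 0.251). Its r was 0.166 without XXF F1 and XYF F6, so the relation rested on those mice, and without XXF F1 alone it was 0.363 (permutation adjusted p = 0.508, range 0.0444 to 0.508 over the alternatives). The adjusted p was above 0.1 without any 1 of XXF F1 to F5, XYF F6 to F9, XXM 2, 5 and 7 and XYM 12 and 13, with r from 0.363 to 0.616. The r of the remaining 6 members with Fos ran from -0.192 for Egr2 to 0.489 for Egr1, with permutation adjusted p from 0.155 to 0.449 and rho from -0.125 to 0.375. Without XYM 15 the adjusted p was under 0.1 for Jund (r = 0.534, permutation adjusted p = 0.0879), Egr1 (0.534, 0.0879) and Atf3 (0.493, 0.0336), and for Egr1 also without XYM 16 (0.584, 0.0831) or XYM 9 (0.605, 0.0668) and without both XYF F9 and XYM 9 (0.616, 0.0728). Over the alternatives the permutation adjusted p of Egr1 ranged from 0.0668 to 0.735, that of Jund from 0.0879 to 0.811 and that of Atf3 from 0.0336 to 0.510. All members of a mouse were measured in the same library. The part of depth and of the makeup of the spleen in these relations was not tested.

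Junb, Jund, Egr1 and Ier2 had high r with one another. The r between deviations was 0.837 for Junb with Jund, 0.870 for Junb with Egr1, 0.809 for Junb with Ier2, 0.830 for Jund with Egr1, 0.806 for Jund with Ier2 and 0.666 for Egr1 with Ier2 over the 19 mice, given as descriptions. Jun had an r of 0.781 with Junb and 0.769 with Fosb. Atf3 had an r of no more than 0.29 with any other member.

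**Figure D4:**
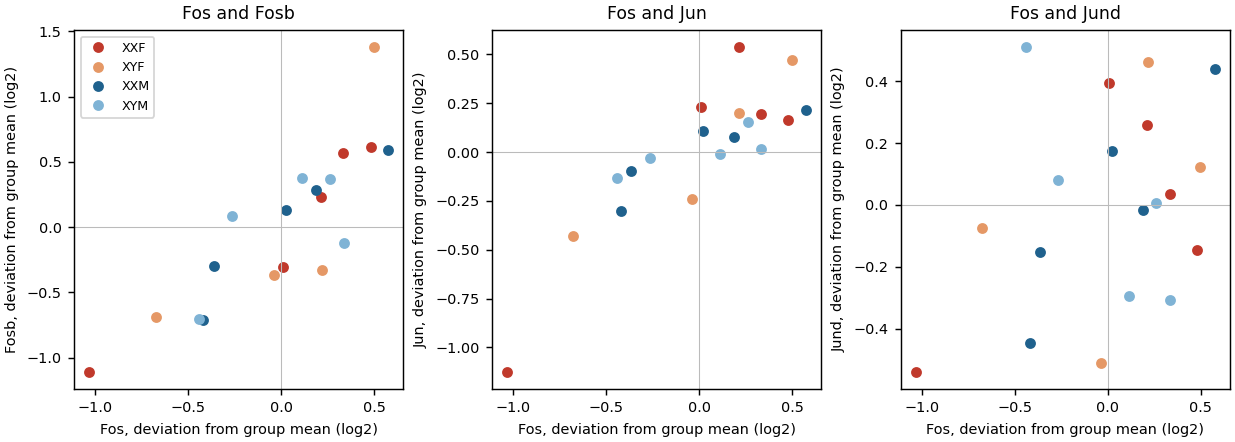
Deviations from group means of log2(RPKM + 1) for Fos on the x axis and for Fosb, Jun and Jund on the y axes, 1 point per mouse coloured by group. Fosb and Jun rise with Fos at an r of 0.848 and 0.854, and XXF F1 is the point at the far left.

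Ranked by r with Fos over 19 mice among all other genes tested, Jun was 1 and Fosb was 2, and Junb was 44, Egr1 135, Ier2 258, Dusp1 295, Jund 579, Atf3 1055 and Egr2 11186. The 10 genes outside the members with the highest r were Plk2 (0.752), Serpine3 (0.750), Zbtb48 (0.718), Entrez 100861930 (0.701), Gm14439 (0.698), Ptgs2 (0.690), Mtrf1l (0.681), 1700124L16Rik (0.671), Adam1a (0.662) and Tex38 (0.662). Plk2, a polo-like kinase, had 74 to 325 reads and Ptgs2, the inducible cyclooxygenase, had 26 to 158. Entrez 100861930, Gm14439, 1700124L16Rik and Tex38 had at most 16 reads in any mouse, so their r carries counting error.

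Of the wider set of immediate early genes, 27 of 29 listed were tested, and a difference between this list and the members or all genes was not tested. Nr4a1, an orphan receptor induced by antigen receptor signals, fell in XX against XY females by 0.72 on the log2 scale (SE 0.13, limma adjusted p = 0.0113). It was 4.88 ± 0.05 in XXF (SD, n = 5) and 5.60 ± 0.13 in XYF mice (n = 4). All 5 XXF mice were below all XYF mice, and 5.65% of all genes were likewise without overlap between these groups. Cell type markers differed between the same groups, with 5 of 7 NK cell markers called higher in XXF mice and summed RPKM of neutrophil markers of 3948 to 5448 in XXF and 8102 to 56970 in XYF mice, and their part in the value of Nr4a1 was not tested. Klf4 was called lower in the same comparison (-0.87). In limma 0 of 27 were thus called higher there and 2 called lower, beside 1.38% of all genes. Of the 27 differences in females 16 were above 0, with a median of 0.047 beside 0.062 for all genes. In males Nr4a3 was called lower in XX mice (-0.71), 1 of 27 beside 2.96%. The call of Klf4 was lost without any 1 of XXF F1, F2, F4 and F5 and XYF F6 and F9 (values -0.93 to -0.63, limma adjusted p 0.108 to 0.281). That of Nr4a3 was lost without any 1 of XXM 2, 5 and 6 and XYM 12, 13 and 16 (-0.72 to -0.59, adjusted p 0.122 to 0.173). With only the 2 groups in the fit both were lost (limma adjusted p 0.155 and 0.108), as was Klf4 with array weights (-0.63, 0.106), and limma-voom moved Nr4a3 to -1.63. Males of XX mice exceeded females in Zfp36, which speeds the decay of cytokine and early gene transcripts (0.74, SE 0.13, limma adjusted p = 0.00244), and in Klf4 (0.74), 2 of 27 beside 4.22% of all genes.

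In XY mice 3 of the 27 were called higher in males, Egr3 (1.52), Nr4a3 (0.80) and Tnfaip3 (0.60), and 2 lower, Ppp1r15a (-1.23) and Ier3 (-0.62), which makes 5 of 27 beside 15.8% of all genes. The call of Tnfaip3 was lost without any 1 of XYF F6 and F9 and XYM 12, 15 and 16 (0.51 to 0.58), and that of Ier3 without any 1 of XYF F6, F7 and F9 and XYM 12, 15 and 16 (-0.65 to -0.51, limma adjusted p 0.103 to 0.154). Tnfaip3 also lost it with median ratio rescaling (0.55) and array weights (0.57), and Ier3 with only the 2 groups in the fit (limma adjusted p = 0.154), and limma-voom moved Nr4a3 to 1.90. Over both complements, where 7.32% of all genes were called, Egr3 was called higher (0.91) and Ppp1r15a lower (-0.65), the latter not without XYF F6 (-0.56) or XYF F9 (-0.54). For the difference of the XX minus XY effects limma called 0.0846% of all genes. These 12 genes became 0 to 1694 with 1 mouse left out. Of the 27, Nr4a1 (-0.90, limma adjusted p = 0.0877) and Nr4a3 (1.35, limma adjusted p = 0.0877) were called, kept in 11 and 12 of 28 alternatives. Both were lost without any 1 of XXF F1, F2, F4 and F5, XYF F6, F7 and F9, XXM 2, 5 and 6 and XYM 12 and 16, Nr4a1 also without XXM 8 and Nr4a3 also without XYM 13. They were lost as well with no filter (limma adjusted p = 0.123 for both), without XXF F1 and XYF F8 (0.112) and in limma-voom (0.118), which moved Nr4a3 to 3.30, and Nr4a1 was lost with a pseudocount of 0.1 (0.116). The values without these mice were -0.93 to -0.84 for Nr4a1 and 1.24 to 1.40 for Nr4a3, with limma adjusted p from 0.107 to 0.232, and over all alternatives the adjusted p was 0.0185 to 0.232 for Nr4a1 and 0.00841 to 0.232 for Nr4a3. Averaged over gonadal sexes, limma called 0 of 27 beside 1.72% of all genes.

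Other AP-1 family genes gave 1 call among the 11 of 12 that were tested, in a comparison where 15.8% of all genes were called. Atf7 was 0.89 higher in XY males than in XY females (SE 0.29, limma adjusted p = 0.0294, range 0.00371 to 0.0883). In that comparison 2 of 11 differences were above 0, with a median of -0.22 beside 0.017 for all genes. In each other comparison limma called 0 of these 11 genes, beside 0.0846% to 7.32% of all genes. Their medians there ran from -0.16 to 0.04 on the log2 scale.

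The kinases and factors upstream, 19 of 19 tested, gave calls for Elk4, a partner of serum response factor at early gene promoters. Elk4 was called lower in XX than in XY males (-1.27, limma adjusted p = 0.0905, range 0.00514 to 0.221) and higher in XY males than in XY females (1.46, limma adjusted p = 0.0193, range 0.00525 to 0.0730). The call among XX and XY males was lost without any 1 of XXF F4 and F5, XYF F8, XXM 2, 5 and 6 and XYM 12, 13 and 16 (-1.27 to -1.02), with no filter (limma adjusted p = 0.123), with only the 2 groups in the fit (0.112) and in limma-voom (-1.36, 0.107). Rps6ka3 (0.80) and Mrtfb (0.68) were called higher in XY males as well, Rps6ka3 not without XYF F6 or XYM 12, 13 or 16 (0.64 to 0.74, limma adjusted p 0.111 to 0.181) and Mrtfb not without XYM 12 (0.57). These were 1 of 19 genes in males beside 2.96% of all genes and 3 of 19 in XY mice beside 15.8%. In the other 5 comparisons, where 0.0846% to 7.32% of all genes were called, limma called 0 of these 19 genes. In XY mice 17 of 19 of these genes were above 0 for males minus females, with a median of 0.33 beside 0.017 for all genes, opposite in sign to the median of the members.

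Among feedback genes of the MAP kinases, 12 of 12 tested, Spry2 was higher in XX than in XY mice of both gonadal sexes. Spry2 encodes an inhibitor of receptor signalling to MAP kinases. The difference was 0.80 in females (SE 0.18, limma adjusted p = 0.0428) and 0.82 in males (SE 0.17, adjusted p = 0.0332). Averaged over the sexes it was 0.81 (SE 0.13, limma adjusted p = 0.00145, range 0.000704 to 0.00454). The call in females was lost without XXF F5 (0.73, limma adjusted p = 0.125), XYF F6 (0.81, 0.110) or XYF F9 (0.73, 0.185) and with only the females in the fit (0.104), and that in males was lost without XXM 2 (0.79, 0.1001). For males minus females, Spred2 was called lower in XX mice (-0.86), Dusp8 lower (-1.15) and Dusp4 higher (0.83) in XY mice, and Dusp8 lower over both (-0.69). Spred2 was not called without any 1 of XXF F1, F4 and F5 and XXM 2, 5 and 6 (-0.88 to -0.72), Dusp4 was not without XYF F6 (0.66), and Dusp8 over both complements was not without XYF F6 (-0.57). Spred2 was not called without XXF F1 and XYF F8 either (-0.72), and limma-voom gave -1.40 for Spred2 and -2.39 and -1.46 for Dusp8. The counts were 1 of 12 in females beside 1.38% of all genes, 1 in males beside 2.96%, 1 over both gonadal sexes beside 1.72%, 1 in XX mice beside 4.22%, 2 in XY mice beside 15.8% and 1 over both complements beside 7.32%. The difference of effects gave 0 calls in limma beside 0.0846% of all genes.

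Heat shock genes, 12 of 12 tested, had their highest mean in XXM mice. Their summed RPKM was 1317, 1750, 1517, 1233 and 1513 in XXF F1 to F5 and 1545, 1540, 1536 and 1206 in XYF F6 to F9. It was 2456, 1555, 1688, 1912 and 2390 in XXM 2, 5, 6, 7 and 8 and 1376, 1223, 1950, 1348 and 1396 in XYM 12, 13, 15, 16 and 9. XYM 15 lay among the XXM mice, and Hsp90ab1 made up 63.6% of the sum over all mice.

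In males 12 of 12 heat shock genes were above 0 for XX minus XY, with a median of 0.40 beside 0.0064 for all genes, and Hsp90aa1 was called (0.72), 1 of 12 beside 2.96% of all genes. In XX mice 11 of 12 were above 0 for males minus females and Hsph1 (1.05), Dnaja1 (0.75) and Hsp90aa1 (0.73) were called, 3 of 12 beside 4.22% of all genes. In XY mice Hsph1 was called higher (0.78) and Hspe1 lower (-0.64) in males, 2 of 12 beside 15.8% of all genes, and over both complements Hsph1 (0.91) and Dnaja1 (0.61) were called higher, 2 of 12 beside 7.32%. In females, over both gonadal sexes and for the difference of effects limma called 0, beside 1.38%, 1.72% and 0.0846% of all genes. For the difference of effects 0 of 12 were above 0. XXM mice thus had both the higher heat shock sums and the higher means of Junb, Jund and Ier2 beside XYM mice, and a relation between them was not tested.

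Apart from Hsph1 over both complements, each heat shock call was lost without at least 1 single mouse. In males Hsp90aa1 was not called without any 1 of XXF F4 and F5, XYF F8, XXM 2, 5, 6 and 8 and XYM 12, 13 and 16 (0.52 to 0.82, limma adjusted p 0.1005 to 0.225). In XX mice the calls were lost without XXF F1 or F4 or XXM 8 for Hsph1 (0.79 to 0.97), without XXF F1, F4 or F5 or XXM 2 or 8 for Hsp90aa1 (0.54 to 0.73) and without XXF F1, F3 or F4 or XXM 2, 7 or 8 for Dnaja1 (0.59 to 0.78). In XY mice they were lost without XYF F6, F7 or F9 or XYM 12, 15 or 16 for Hsph1 (0.53 to 0.82) and without XYF F6, F7 or F8 or XYM 12, 13 or 16 for Hspe1 (-0.65 to -0.49). Over both complements that of Dnaja1 was lost without XXF F1 or F4, XYF F9, XXM 2 or 8 or XYM 15 (0.53 to 0.58). With no filter limma did not call Hsp90aa1 in males (adjusted p = 0.117), Dnaja1 in XX mice (0.113) or Hsph1 (0.116) and Hspe1 (0.122) in XY mice, and with only the 2 groups in the fit Hsp90aa1 in males (0.132) and Hspe1 (0.144) were not called. Array weights lost Dnaja1 in XX mice (0.56) and over both complements (0.38) and Hsph1 in XY mice (limma adjusted p = 0.213). Leaving out XXF F1 and XYF F8 lost all 3 calls in XX mice and that of Hspe1, and leaving out XYF F9 and XYM 9 lost Dnaja1 over both complements (0.54).

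Early cytokines, 9 of 11 tested, are targets of the same pathways. Il10 was called lower in XX than in XY females (-1.03) and over both gonadal sexes (-0.83, limma adjusted p = 0.0229, range 0.00338 to 0.0571). In XX beside XY males Ccl3 (0.86) and Ccl4 (0.76) were called higher, and in XX mice Ccl3 was higher in males than in females (0.84). Il1b fell in XY males against XY females by 1.28 on the log2 scale (SE 0.26, limma adjusted p = 0.00377), and by 0.81 over both complements. Cxcl2 was called lower in the same comparisons (-0.93 and -0.62). The counts were 1 of 9 in females beside 1.38% of all genes and 2 in males beside 2.96%. They were 1 over both gonadal sexes beside 1.72%, 1 in XX mice beside 4.22% and 2 in XY mice beside 15.8%. Over both complements limma called 2 beside 7.32%, and for the difference of effects 0 beside 0.0846%.

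Calls of the early cytokines that were lost without a single mouse were those of Il10 in females, Ccl3 and Ccl4 in males and Cxcl2. Il10 lost its call without any 1 of XXF F1, F2, F4 and F5 and XYF F6, F8 and F9 (-1.09 to -0.90, limma adjusted p 0.102 to 0.194), and Ccl3 in males without any 1 of XXM 2, 5 and 6 and XYM 12 and 16 (0.79 to 0.94). Ccl4 lost it without any 1 of XXF F4 and F5, XYF F6 and F8, XXM 2, 5, 6 and 8 and XYM 12, 13, 16 and 9 (0.65 to 0.85). Cxcl2 lost it in XY mice without any 1 of XYF F7 and F9 and XYM 12, 15 and 16 (-0.89 to -0.60), and over both complements without any 1 of XXF F3 to F5, XYF F7 and F9, XXM 2, 5, 6, 7 and 8 and XYM 12, 15 and 16 (-0.63 to -0.45). With no filter limma lost Il10 in females (adjusted p = 0.104), Ccl4 in males (0.130) and Cxcl2 in XY mice (0.117) and over both complements (0.130). With only the 2 groups in the fit it lost Ccl4 (limma adjusted p = 0.110) and Cxcl2 in XY mice (0.160). A pseudocount of 0.1 and limma-voom each lost Ccl4 and Cxcl2 over both complements, array weights lost Ccl4 (0.58), and Il10 in females was lost without XXF F1 and XYF F8 (-0.91) and Cxcl2 over both complements without XYF F9 and XYM 9 (-0.57). In limma-voom the value of Il10 was -1.77 in females and -1.44 over both gonadal sexes.

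**Figure D5:**
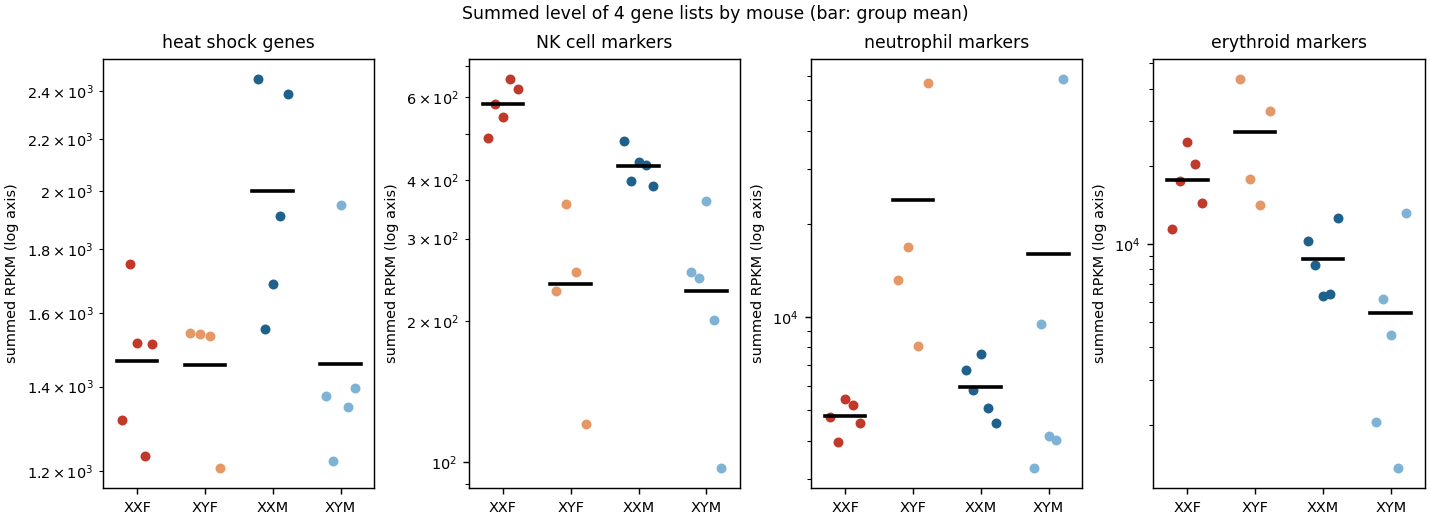
Summed RPKM of heat shock genes and of NK cell, neutrophil and erythroid markers on log axes, 1 point per mouse by group, with bars for group means. The group mean for heat shock genes is highest in XXM mice, which range from 1555 to 2456, with XYM 15 at 1950, and XYF F9 and XYM 9 stand apart for neutrophil markers.

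In all there were 43 calls of genes from these 6 lists over the 7 comparisons, of which 16 were kept under every alternative and 27 were lost under at least 1. Those kept under every alternative were Atf7, Egr3, Ppp1r15a, Nr4a3, Elk4, Dusp8 and Il1b in XY mice, Klf4, Zfp36 and Ccl3 in XX mice, Nr4a1 in females, Egr3, Hsph1 and Il1b over both complements, and Spry2 and Il10 over both gonadal sexes. Those kept in the fewest were the difference of effects of Nr4a1 and Cxcl2 over both complements, in 11 of 28 each, the difference of effects of Nr4a3, in 12 of 28, Ccl4 in males, in 12 of 29, and Elk4 and Hsp90aa1 in males, in 17 of 29 each.

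Cell type markers moved with the same groups, and their part in the values of the members and of the lists was not tested. Their calls were not recomputed under the alternatives. In XX against XY males, where 2.96% of all genes were called, 3 of 7 NK cell markers were called higher, Gzma (1.40), Klre1 (0.93) and Klrb1c (0.91), and 3 of 8 T cell markers lower, Cd28 (-0.79), Cd8a (-0.77) and Cd4 (-0.69). The B cell marker Pax5 (0.90) was called higher, 1 of 7, as was Hba-a1 (1.55), 1 of 7 erythroid markers. All 7 erythroid markers were above 0 in this comparison, with a median of 0.77 beside 0.0064 for all genes. Here limma called 0 of 7 plasma cell, 0 of 10 neutrophil, 0 of 11 monocyte and macrophage, 0 of 6 platelet and 0 of 4 stromal and endothelial markers tested. The summed RPKM of NK cell markers was 483, 398, 438, 430 and 388 in XXM 2, 5, 6, 7 and 8 and 255, 247, 361, 201 and 97.1 in XYM 12, 13, 15, 16 and 9, so that those groups did not overlap. For T cell markers it was 498, 539, 491, 377 and 365 in the XXM mice and 543, 515, 698, 610 and 333 in the XYM mice. None of the NK, T or B cell markers was at 0 in any mouse, and Gzma and Trac were the most abundant, at 53.4% and 26.6% of the sums of their lists.

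In XY males against XY females, where Ier2, Junb and Atf3 had lower means and 15.8% of all genes were called, 6 of 7 B cell markers were called higher, with Cd22 at 1.18. There 6 of 8 T cell markers, 7 of 7 erythroid markers, 4 of 6 platelet and megakaryocyte markers and 4 of 11 monocyte and macrophage markers were called lower. The summed RPKM of erythroid markers was 43700, 17850, 14170 and 32770 in XYF F6 to F9 and 2053, 6143, 4466, 1362 and 13210 in XYM 12, 13, 15, 16 and 9, with Hbb-bs at 71.8% of the sum. Leaving out XYF F9 and XYM 9 together, the mice apart in neutrophil markers, gave 2 called members in males, Jund and Ier2. All genes called in males were then 876 of 14186, where the full fit gave 420. In XY mice the same fit gave 1 called member, Ier2, at -0.70 (limma adjusted p = 0.0327, range 0.0306 to 0.204). The full fit called 15.8% of all genes in that comparison. The share of all genes without these mice is not given, so the call of Ier2 is not read as a result about the members.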

How the data were processed

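Splenocyte RNA of 19 mice was sequenced, 1 library per mouse. Alignment by the authors was to mm10 (Subread) and counting per gene by featureCounts, and they deposited log2(RPKM + 1) values with 0.0001 added; versions, annotation release, strand setting and treatment of reads with several positions were not given. Groups came from the sample labels. The study tested its own table of counts, which was not used here, and limma 3.58.1 in R 4.3.3 was fitted to the log2 values with 1 mean per group (XXF, XYF, XXM, XYM) and a trend in the variance, on 14186 genes that reached 0.5 RPKM in 4 or more mice. Comparisons were XX minus XY and males minus females within each group of the other factor and averaged over it, and the difference of the XX minus XY effects. Genes were called at a Benjamini-Hochberg adjusted p under 0.1 and beyond 1.5-fold. Library sizes of 11263753 to 19962022 reads and whole reads, within a tolerance of 0.05, were recovered from the values for 21317 of 21317 genes with reads; a gene with 50 reads carries counting error beside the spread between mice. Of the 27179 genes, 25275 were given symbols by Entrez number.

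Members were also compared by exact permutation of mice between groups, over all 126 or 252 arrangements for pairs of groups, 2-sided. Correlations with Fos used deviations from group means, with 100000 permutations within groups. The lists examined were other AP-1 family genes, other immediate early genes, upstream kinases and factors, MAP kinase feedback genes, heat shock genes, early cytokines, and markers of B cells, T cells, NK cells, plasma cells, neutrophils, monocytes and macrophages, erythroid cells, platelets and megakaryocytes, and stroma and endothelium. Members and lists were chosen with earlier results of these data known. Genes named were all members, up to 6 called genes of each list by size of difference or else its 2 most abundant, and the 10 other genes most correlated with Fos. Ier3, Tnfaip3, Cd4 and Hsp90ab1 were named beyond this rule after their values were seen. Alternatives were pseudocounts of 0.1 and 0.5, a filter at an RPKM of 1 (13026 genes), no filter (21317 genes), median ratio rescaling, array weights, limma-voom on recovered reads, only the 2 groups compared, each mouse left out, and XYF F9 and XYM 9 left out. Leaving out XXF F1 and XYF F8 was chosen after seeing the data. Promoters were the 250 bases before the start in each RefSeq promoter entry on GRCm38.p6, without the entries on chromosome 18. Permutations ran in scipy 1.17.1 and numpy 2.4.6 under Python 3.11.15, tables in pandas 2.3.3 and plots in matplotlib 3.10.9. The fits were tested on simulated reads with the same spread for all genes and 200 of 14186 genes changed by 1 on the log2 scale. The fit to log2 values called 81.5% to 89.5% of these and 9 to 16 unchanged genes. Changes near 1.5-fold and single mice standing apart were not simulated, so calls of that kind were not tested.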

Additional observations from a re-analysis of the deposited data

Results flagged for a closer look

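In 100 groups of 4 or 5 values looked at, over members and summed lists, 8 had a mouse whose gap to the nearest other mouse was a large share of the group's range, and chance alone gives about 1 in 20. Among XXF mice, F1 was far below the others for Jun (4.28 log2(RPKM + 1)) and Junb (6.83). Among XYF mice, F7 was far above the others for Ier2 (7.53) and F9 far below them for the summed RPKM of heat shock genes (1206). Among XXM mice, 2 was far below the others for the summed RPKM of upstream kinases and factors (438). Among XYM mice, 15 was far above the others for heat shock genes (1950), and 9 was far above them for neutrophil markers (58830) and for monocyte and macrophage markers (3422). The cause of these distances was not tested.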

How the results depend on the processing

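Of the log2 differences of members and list genes recomputed under alternatives other than single mice, 1008 kept their direction and side of the threshold, 47 lost a call, 7 gained one and 27 changed sign; with single mice left out these were 1916, 170, 15 and 46, and no called list gene changed sign. In limma, the count of members called between XX and XY males, 1 as reported, was 0 with no filter, 0 with only the 2 groups compared and 2 without XYF F9 and XYM 9, and 0 to 3 with 1 mouse left out. In XY mice males against females, 0 as reported, it was 1 with a pseudocount of 0.1, 1 with 0.5, 1 with median ratio rescaling, 1 by limma-voom, 1 without XYF F9 and XYM 9 and 1 without XXF F1 and XYF F8, and 0 to 3 with 1 mouse left out. Genes called of all tested were, between XX and XY females (196), 88 with only the 2 groups and 127 without XYF F9 and XYM 9, and 56 to 850 with 1 mouse left out. Between XX and XY males (420) they were 211 with no filter, 121 with only the 2 groups, 1027 with array weights and 876 without XYF F9 and XYM 9, and 51 to 1213 with 1 mouse left out. Over both gonadal sexes (244) they were 413 with a pseudocount of 0.1 and 395 by limma-voom, and 148 to 518 with 1 mouse left out. Males against females gave 1700 with a pseudocount of 0.1 and 1714 by limma-voom over both complements (1039), and 1395 to 2958 in XY mice (2236) with 1 mouse left out. For the difference of effects (12) they were 6 with a pseudocount of 0.1, 6 with no filter, 1910 with array weights, 4 by limma-voom, 782 without XYF F9 and XYM 9 and 4 without XXF F1 and XYF F8, and 0 to 1694 with 1 mouse left out. Of the 40 exact permutation tests, 7 gave a p under 0.05 as reported and 4 without XXF F1 and XYF F8. Of 9 relations with Fos, 3 had an adjusted p under 0.1 as reported and 2 to 6 with 1 mouse left out, 6 without XYM 15.

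Values that changed sign without XXF F1 and XYF F8, chosen after seeing the data, were, for XX minus XY in females, Fosb 0.037, Jun 0.015, Junb 0.14, Ier2 0.049 and Dusp1 0.033; over both gonadal sexes, Fosb 0.0093, Jun 0.12 and Egr1 0.026; for males minus females, Junb -0.053 and Ier2 -0.096 in XX mice and Fosb 0.38 in XY mice; and for the difference of effects, Fosb 0.054. Without XYF F9 and XYM 9 they were Jund -0.066 and Dusp1 0.14 in females, Egr1 -0.046 in males and Dusp1 0.048 for the difference of effects. With array weights they were Dusp1 0.25 in females; Fos -0.10, Egr1 -0.086, Atf3 -0.021 and Dusp1 -0.018 in males; for males minus females, Egr2 0.00014 and Ier2 -0.0042 in XX mice, Dusp1 0.038 in XY mice and Fos -0.012 over both complements; and Dusp1 0.27 for the difference of effects. Median ratio rescaling gave Egr1 -0.019 in XY mice.

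With 1 mouse left out, values that changed sign ranged, for XX minus XY in females, from -0.20 to 0.12 for Junb, -0.066 to 0.26 for Jund, -0.18 to 0.039 for Egr2, -0.13 to 0.20 for Ier2 and -0.34 to 0.15 for Dusp1. In males they ranged from -0.057 to 0.19 for Fos, -0.19 to 0.16 for Fosb, -0.046 to 0.19 for Egr1 and -0.13 to 0.12 for Atf3, and over both gonadal sexes from -0.17 to 0.041 for Jun and -0.095 to 0.15 for Dusp1. For males minus females in XX mice they ranged from -0.053 to 0.19 for Junb, -0.16 to 0.022 for Egr2, -0.096 to 0.13 for Ier2 and -0.16 to 0.11 for Dusp1. In XY mice they ranged from -0.32 to 0.38 for Fosb and -0.067 to 0.16 for Egr1, over both complements from -0.0014 to 0.21 for Fos and -0.019 to 0.20 for Jun, and for the difference of effects from -0.49 to 0.0038 for Dusp1. The cause of these changes was not tested. Groups of 4 and 5 mice and, for scarce genes, depth limit the precision, and their shares in it were not tested. No paired analysis was possible because the groups compared share fewer than 2 replicate numbers.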

Other observations

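In XX against XY females, where 1.38% of all genes were called, 5 of 7 NK cell markers were called higher in limma, Gzma (1.73), Klrb1c (1.46), Ncr1 (1.46), Klre1 (1.41) and Prf1 (1.005), as were 1 of 7 B cell markers, Blk (0.76). In the same females 1 of 7 plasma cell markers, Tnfrsf17 (-0.92), and 1 of 6 platelet markers, Gp9 (-0.85), were called lower, and limma called 0 of 8 T cell, 0 of 10 neutrophil, 0 of 11 monocyte and macrophage, 0 of 7 erythroid and 0 of 4 stromal and endothelial markers tested. The neutrophil markers had a median difference of -1.76 there, and the most abundant, S100a9 and S100a8, differed by -1.93 and -1.87 (adjusted p = 0.161 and 0.159).

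For males minus females in XX mice, where 4.22% of all genes were called, 8 of 8 T cell markers were called lower in limma, as were 2 of 11 monocyte and macrophage markers and 1 of 7 NK cell markers, and 1 of 7 B cell markers, Pax5 (0.999), was called higher. In XY mice, where 15.8% of all genes were called, 1 of 7 plasma cell markers was called higher, Irf4 (1.03), and 1 lower, Tnfrsf17 (-0.82). Of 10 stromal and endothelial markers 4 were tested and 0 were called in any comparison, with Pecam1 at 97.4% of their summed RPKM and Kdr next at a mean RPKM of 0.520. The difference of effects was called for 1 of 8 T cell markers, Cd28 (1.35), and for 0 of the markers in the 8 other lists, beside 0.0846% of all genes.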
